A study of Homo sapiens with 4 samples.

Results

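The mitochondrial ribosomal proteins were examined in SNU-668, a cultured line from a human gastric cancer. Members were the protein-coding genes of the deposited table whose symbol is MRPL or MRPS followed by a number and, for some, a letter from A to C. This gave 66 genes of 16692 in the table, 13934 of them protein-coding, with 40 genes of the large and 26 of the small subunit. The series text describes the cells as resistant to erastin, an inhibitor of cystine import that causes ferroptosis, whereas the library names carry RLS3, so the agent behind the resistance is uncertain. Both groups share this background and carried either shRNA-ALKBH3 (genotype label ALKBH3 knockdown) or a control shRNA (genotype label WT). ALKBH3 is a demethylase that acts on alkylated nucleic acids. Ribosome footprints, the mRNA stretches that a ribosome shields from RNase, and RNA were each sequenced from 1 library per group, 4 libraries in all. No difference has a replicate check, intervals are 95% counting intervals, no p-value is given, and every comparison is between 2 libraries rather than 2 conditions.

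The mitochondrial ribosome translates the few subunits of the oxidative phosphorylation complexes that mitochondrial DNA encodes. All of its proteins are encoded in the nucleus, made on cytosolic ribosomes and imported. Many belong to families shared with bacterial ribosomes and the others are specific to mitochondria. The small subunit reads the mRNA, and the large subunit forms the peptide bond and holds the exit tunnel, which faces the inner membrane.

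The footprint libraries held 3795680 (control) and 3742513 (knockdown-labelled) counts, and the RNA libraries 554075 and 689375. ALKBH3 itself had 14 footprints in the control and 22 in the library labelled ALKBH3 knockdown, with RNA counts of 0 in both, so it did not bear out the label. Among epithelial markers, footprints numbered 0 and 2 for EPCAM, 4 and 3 for KRT19, 17 and 15 for KRT8 and 462 and 538 for KRT18. The mesenchymal genes VIM (23326 and 16521) and CDH2 (2058 and 2768) had more. In RNA the order differed, with 208 and 511 counts for KRT8, 47 and 104 for VIM, 13 and 36 for KRT18, 4 and 3 for CDH2 and 0 for EPCAM and KRT19. By footprints the leukocyte gene PTPRC was at 0 in both.

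The first question was how much of the footprint pool the mitochondrial ribosomal proteins held in each library. The 66 genes took 0.542% (Wilson interval 0.535 to 0.550) of the control footprints and 0.511% (Wilson interval 0.504 to 0.519) of the knockdown-labelled ones. The large subunit took 0.354% (Wilson interval 0.348 to 0.360) and 0.323% (Wilson interval 0.317 to 0.329). The small subunit took 0.188% (Wilson interval 0.184 to 0.192) and 0.188% (Wilson interval 0.184 to 0.193). The share was thus lower in the knockdown-labelled library for the large subunit, and the small-subunit intervals overlapped. From footprints of whole-culture lysates alone, fewer cells with a transcript, less of it per cell and fewer ribosomes on it cannot be told apart.

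Of the 66 members, 56 had at least 100 footprints summed over both libraries and are called measured, 34 of the large and 22 of the small subunit. Their totals ran from 108 to 2740 footprints. Ratios of the knockdown-labelled to the control library were taken on the log2 scale, with 0.5 added to each count and totals scaled by TMM factors (trimmed mean of M values). Their median was -0.099 over the 56 genes, beside -0.017 over all 7050 measured genes of the table. Single ratios ran from -0.67 to 0.48, with a standard deviation of 0.25 across members and 0.36 across all measured genes. The median counting error was 0.12 per member and 0.15 per gene over all measured genes. The members' intervals were thus narrower, and a narrower interval leaves out 0 more readily. The interval lay below 0 for 19 members, above 0 for 4 and held 0 for 33. Over all measured genes 22.3% of intervals lay below 0 and 18.2% above, beside 33.9% and 7.14% of the members.

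**Figure D1:**
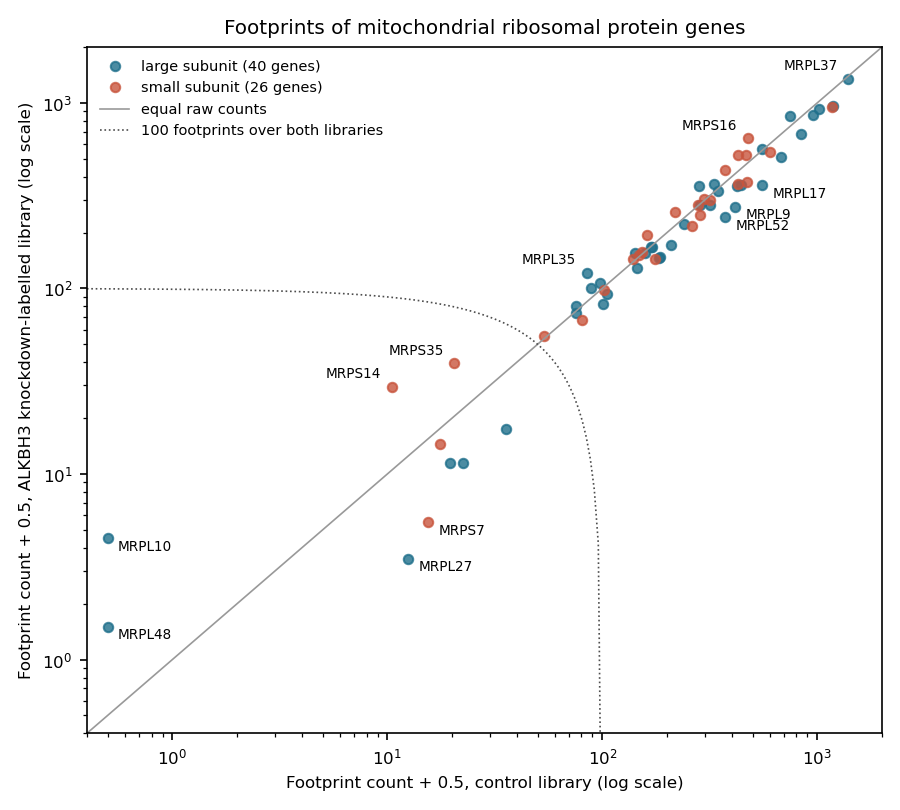
Footprint counts of the 66 genes in the control (x axis) and the knockdown-labelled library (y axis), both with 0.5 added and on log scales, coloured by subunit; the grey line marks equal raw counts and the dotted line 100 footprints over both libraries. The 56 measured genes lie close to the line of equality, and 10 genes with few footprints lie inside the dotted line.

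No measured member was 2-fold apart, a size reached by 0.426% of all measured genes on the lower and 0.879% on the higher side. At a 1.5-fold difference with an interval that leaves out 0, 3 of the 56 members were lower and 0 higher. Of all 7050 measured genes, 326 (4.62%) were lower and 345 (4.89%) higher, so the members' lower share was near that of all genes. The 3 members were MRPL17, MRPL52 and MRPL9, all of the large subunit. With the deposited RPKM in place of TMM-scaled counts none of them reached 1.5-fold, and the median over the 56 members changed sign, to 0.020. The median of all measured genes was then 0.10, so that the members' median lay 0.082 below it under TMM and 0.081 below it with RPKM.

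The subunits were then compared with each other. The large subunit had a median log2 ratio of -0.17 and the small subunit -0.029, a difference of -0.14. The measured large-subunit genes summed to 13352 and 12032 footprints, or -0.20 (-0.23 to -0.16). The measured small-subunit genes summed to 7076 and 6967, or -0.069 (-0.12 to -0.021). The difference of these sums was -0.13 (-0.19 to -0.068). Summed over all 7050 measured genes the log2 ratio was -0.070 (-0.072 to -0.068), a range that holds the small-subunit value. Intervals lay below 0 for 13 large-subunit genes (38.2%) and above 0 for 2 (5.88%). For the small subunit these numbers were 6 (27.3%) and 2 (9.09%), beside 22.3% and 18.2% of all measured genes. The ranges overlapped widely, since all 22 small-subunit genes lay within the range of the large subunit and 29 of 34 large-subunit genes within that of the small. Of the large-subunit genes, 25 lay below the small-subunit median.

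The 3 lowest measured members all belong to the large subunit, and leaving out MRPL17, MRPL52 and MRPL9, which can only bring the medians closer, gave a difference of -0.064. In counts scaled to a common library size (CPM), these 3 genes stood at 362 and 229 in sum, beside 3600 and 3141 CPM for the measured large subunit and 1908 and 1819 CPM for the small, and made up 29.0% of the large subunit's difference of 459 CPM. Adding the 7 ribosomal proteins that carry other symbols brought the difference of the medians to -0.051.

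**Figure D2:**
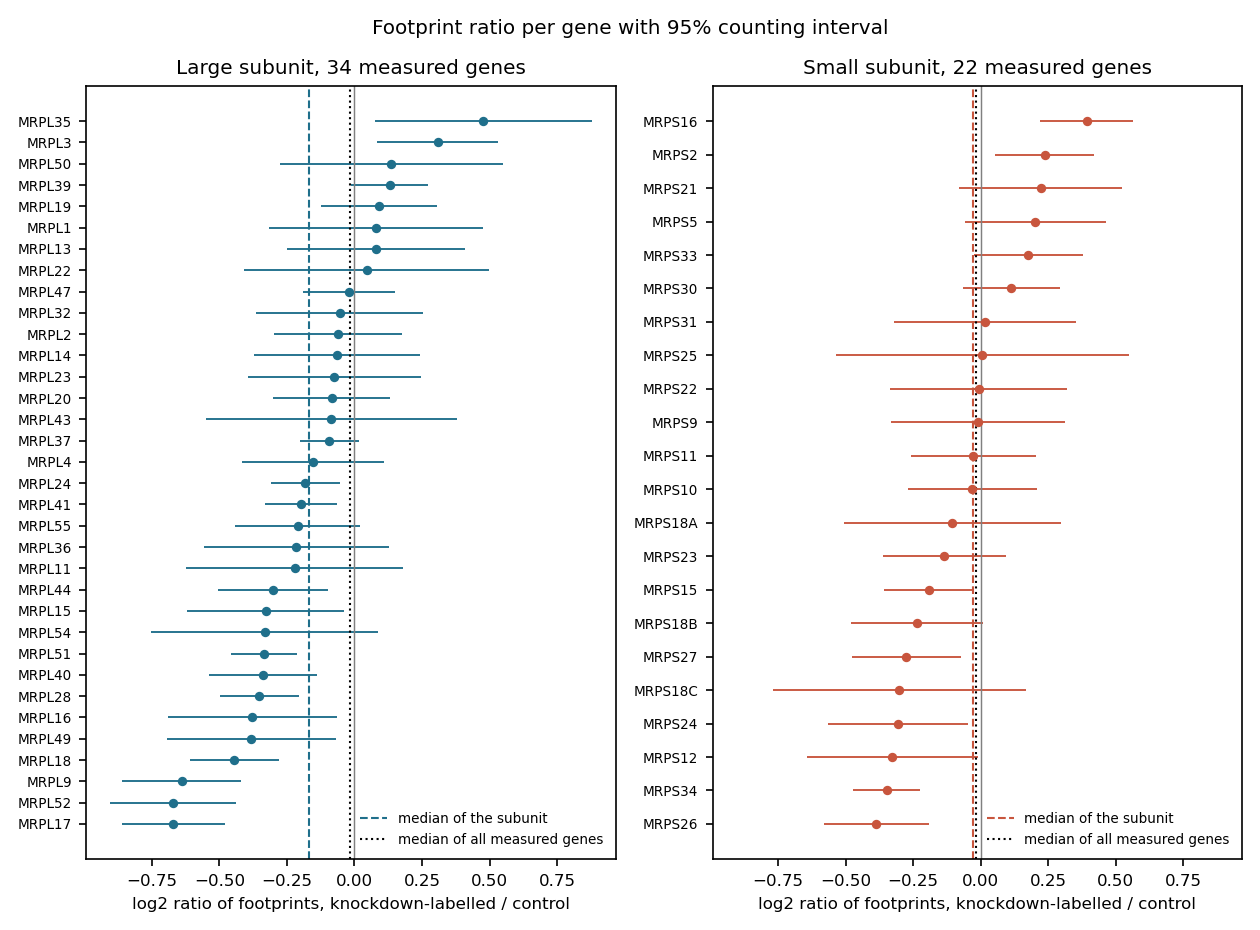
Log2 ratio of footprints (knockdown-labelled over control) for each measured gene of the large (left) and small (right) subunit, with the 95% counting interval as a bar; the dashed line is the subunit's median and the dotted line the median of all 7050 measured genes. The large-subunit median of -0.17 lies left of the dotted line at -0.017, and the small-subunit median of -0.029 beside it.

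In the large subunit, MRPL17 (chromosome 11, 6702013 to 6704632, minus strand, hg19), a protein of a bacterial family at the rim of the exit tunnel, went from 555 to 360 footprints, a log2 ratio of -0.67 (-0.86 to -0.48). MRPL52, specific to mitochondria (chromosome 14, 23299092 to 23304246, plus strand), went from 373 to 242, or -0.67 (-0.90 to -0.44). MRPL9, of a bacterial family (chromosome 1, 151732119 to 151736040, minus strand), went from 415 to 275, or -0.64 (-0.86 to -0.42). These were the lowest ratios among measured members. The span of MRPL9 overlaps OAZ3 on the opposite strand, and whether the counting used strand is not stated, so its count may hold reads of that gene.

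MRPL18, a protein of the central protuberance, went from 676 to 513 footprints, or -0.44 (-0.61 to -0.28). MRPL51, specific to mitochondria, went from 1180 to 966, or -0.34 (-0.46 to -0.21), and its span overlaps NCAPD2 on the opposite strand. MRPL28, of a bacterial family, went from 843 to 682, or -0.35 (-0.50 to -0.21). Each of the 3 had more footprints than the members' median of 282 in the control, and their intervals were among the narrower ones.

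Higher ratios in the large subunit were fewer. MRPL35, of a bacterial family (chromosome 2, 86426580 to 86440917, plus strand), had 84 and 121 footprints, or 0.48 (0.077 to 0.88). MRPL3, a core protein (chromosome 3, 131181056 to 131221813, minus strand), went from 280 to 358, or 0.31 (0.082 to 0.53). All other large-subunit intervals among measured genes held 0 or lay below it. The nearest by their lower bound were MRPL39 at 0.13 (-0.011 to 0.27), MRPL19 at 0.090 (-0.12 to 0.30), MRPL47 at -0.021 (-0.19 to 0.15) and MRPL37 at -0.093 (-0.20 to 0.015). MRPL37 was the member with the most footprints, 1392 and 1348.

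In the small subunit, MRPS16, of a bacterial family (chromosome 10, 75008601 to 75012451, minus strand), went from 475 to 644 footprints. Its ratio of 0.39 (0.22 to 0.56) had the bound furthest above 0 of all measured members. MRPS2, also of a bacterial family (chromosome 9, 138391830 to 138396519, plus strand), went from 429 to 522, or 0.24 (0.052 to 0.42). Both spans overlap a listed gene on the opposite strand, DNAJC9-AS1 for MRPS16 and RP11-426A6.5 for MRPS2. MRPS33 at 0.18 (-0.024 to 0.38), MRPS5 at 0.20 (-0.058 to 0.46), MRPS30 at 0.11 (-0.066 to 0.29) and MRPS21 at 0.22 (-0.079 to 0.52) followed, all with intervals that held 0.

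Of the lower ratios in the small subunit, that of MRPS34, a mitochondria-specific protein (chromosome 16, 1821891 to 1823156, minus strand), had the upper bound furthest below 0, with 1169 and 949 footprints, or -0.35 (-0.47 to -0.22). MRPS26, also specific to mitochondria, went from 472 to 373 and had the lowest ratio, -0.39 (-0.58 to -0.19). MRPS27, a pentatricopeptide repeat protein, was at -0.28 (-0.48 to -0.075). MRPS24 was at -0.31 (-0.57 to -0.047), MRPS15 at -0.19 (-0.36 to -0.025) and MRPS12, the counterpart of a bacterial decoding-site protein, at -0.33 (-0.64 to -0.0094). These last 3 intervals end close to 0.

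By place in the ribosome, the 3 measured genes of the central protuberance had a median of -0.34, with MRPL40 at -0.34 (-0.54 to -0.14) and MRPL55 at -0.21 (-0.44 to 0.021) beside MRPL18. The 5 measured genes of the exit tunnel rim had a median of -0.074. MRPL17 and MRPL24, at -0.18 (-0.31 to -0.054), stood there beside MRPL22, MRPL23 and MRPL47, whose intervals held 0. The 4 measured genes around the peptidyl transferase centre had a median of -0.11, with MRPL16 at -0.38 (-0.69 to -0.065) and MRPL3 on the other side of 0. Of the stalk proteins, MRPL1 was at 0.081 (-0.32 to 0.48) and MRPL11 at -0.22 (-0.62 to 0.18). In the small subunit the 5 measured genes of the head had a median of -0.0096 and the 8 of the body and platform -0.11. All 3 ratios of the central protuberance lay below the median of all genes, as did 26 of the 34 measured large-subunit ratios.

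By ancestry, the 22 measured mitochondria-specific members had a median of -0.17, with 9 intervals below 0 (40.9%) and 0 above. The 34 measured members of bacterial families had a median of -0.069, with 10 below (29.4%) and 4 above (11.8%), beside 22.3% and 18.2% of all measured genes. In the large subunit these medians were -0.30 over 11 and -0.085 over 23 genes, and in the small subunit -0.10 over 11 and -0.027 over 11. From summed counts the log2 ratios were -0.18 (-0.22 to -0.14) for mitochondria-specific and -0.12 (-0.16 to -0.082) for bacterial-type members, and these intervals overlap. The summed ratio of all measured genes was -0.070 (-0.072 to -0.068).

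MRPS18A and MRPS30 carry small-subunit symbols but sit in the large subunit in ribosome structures. MRPS18A had 101 and 97 footprints, or -0.10 (-0.51 to 0.30), and MRPS30 had 467 and 522. Counting both with the large subunit gave it a median of -0.13 and left the small-subunit median at -0.029. MRPS36, a component of the 2-oxoglutarate dehydrogenase complex, had 17 and 14 footprints and was not measured.

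Ribosomal proteins under other symbols included the 2 lowest ratios among all measured genes of the mitochondrial ribosome. GADD45GIP1, of the large subunit, went from 437 to 241 footprints, or -0.90 (-1.13 to -0.68). AURKAIP1, of the small subunit, went from 505 to 289, or -0.85 (-1.06 to -0.64), and CHCHD1, also of the small subunit, from 182 to 122, or -0.62 (-0.95 to -0.29). The other 4 had intervals that held 0, namely PTCD3, a pentatricopeptide repeat protein, at -0.12, DAP3, a GTP-binding protein, at -0.099, ICT1, a peptidyl-tRNA hydrolase that rescues stalled ribosomes, at 0.13, and MRP63 at 0.21. The median over the 7 genes was -0.12.

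The 10 members under 100 footprints, 6 of the large and 4 of the small subunit, enter the shares of the pool but none of the medians or interval counts. MRPS14 went from 10 to 29 footprints (interval 0.43 to 2.46) and MRPS35 from 20 to 39 (0.13 to 1.67), both proteins of the small-subunit head. MRPS7, also of the head, went from 15 to 5 (-2.94 to -0.14). In the large subunit, MRPL27 went from 12 to 3 (-3.59 to -0.17) and MRPL45, at the tunnel exit, from 35 to 17 (-1.89 to -0.24). MRPL34 (22 and 11), MRPL21 (19 and 11) and MRPS36 had intervals that held 0. MRPL10 had 0 and 4 footprints and MRPL48 0 and 1, and since 0 counts leave room for as many as 3, no ratio is given for either.

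Levels were compared per length with the deposited RPKM (reads scaled to gene length and library size). In the control library the measured members had a median of 70.1 RPKM with quartiles of 41.8 and 120.9, beside a median of 24.2 RPKM over all measured genes. The large-subunit median was 76.2 and the small-subunit median 68.3 RPKM in the control, a ratio of 1.11, and the ratio in the knockdown-labelled library was 1.10. The order turned, to a control ratio of 0.98, with MRPS18A and MRPS30 counted in the large subunit, and to 0.91 over members with no opposite-strand overlap. The 5 highest levels in the control, each with its knockdown-labelled value, were those of MRPL51 at 734 and 632 RPKM, MRPL52 at 537 and 366, MRPL41 at 386 and 365, MRPS34 at 270 and 230 and MRPL24 at 245 and 235. In the knockdown-labelled library MRPS16, at 191 and 273 RPKM in the control and knockdown-labelled libraries, and MRPS33, at 214 and 262, stood above MRPL24 and MRPS34. The lowest in the control among measured members were MRPL1 at 15.2 and 17.5 RPKM, MRPS24 at 16.2 and 14.2, MRPS31 at 17.4 and 19.1, MRPL43 at 21.8 and 22.3 and MRPS18A at 23.4 and 23.6.

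Proteins of the same particle differed 48.3-fold in control RPKM. The sources used here do not give the length behind each RPKM. Counts divided by RPKM imply lengths that differ 95.2-fold among the members, with MRPS24 at 5.16 times the members' median and MRPL21 18.4 times below it, so single levels may rest on the length used. Across the 56 measured members the log2 ratio and the control RPKM had a Spearman correlation of -0.30 (Pearson on log2 RPKM, -0.30), beside -0.21 over 7044 protein-coding genes. It was -0.43 in the large subunit (34 genes) and -0.064 in the small (22 genes). Genes of 1 pair of libraries are not independent, and the control count enters both measures.

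**Figure D3:**
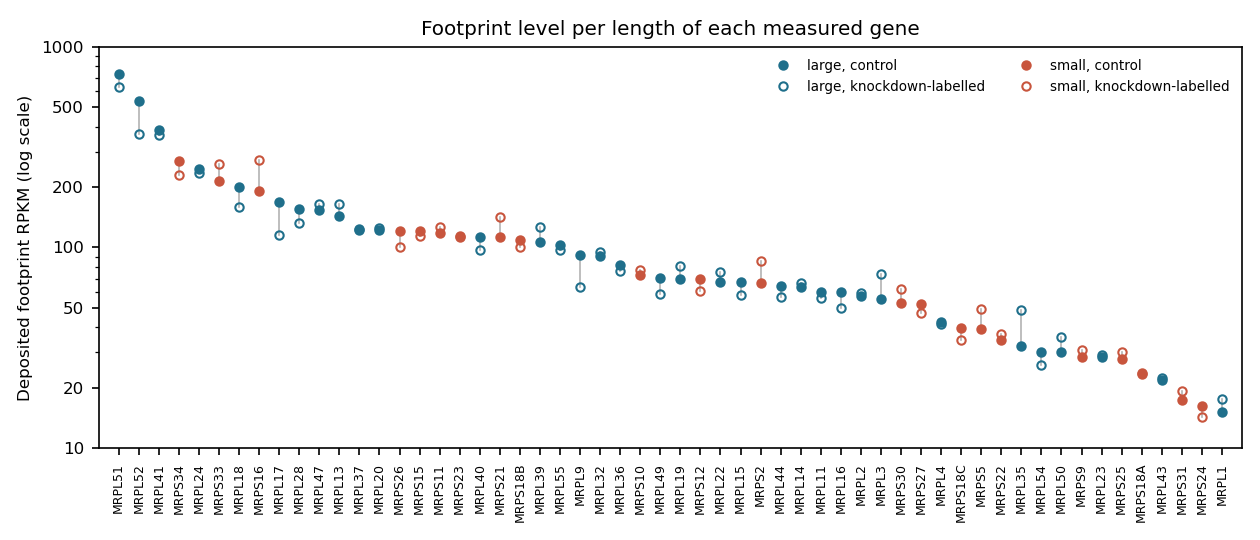
Deposited footprint RPKM (log scale) of the 56 measured genes, ordered by the control level; filled points are the control and open points the knockdown-labelled library, with a grey line joining them. MRPL51 is highest at 734 and 632 RPKM, and MRPL52, MRPL17 and MRPL9 show open points well below the filled ones.

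The factors that work with the mitochondrial ribosome were set beside its proteins. Of 17 genes listed for mitochondrial translation, 14 were measured, with a median of 0.039 and 1 interval below and 1 above 0. That was 7.14% on each side, less than the 22.3% and 18.2% of all measured genes. SLIRP, a partner of LRPPRC in binding mitochondrial mRNA, went from 843 to 493 footprints, or -0.82 (-0.98 to -0.66), while LRPPRC was at 0.037 (-0.058 to 0.13). TSFM, the exchange factor for the elongation factor TUFM, went from 126 to 199, or 0.61 (0.29 to 0.93), while TUFM was at 0.040 (-0.13 to 0.21). The next by their interval bounds all held 0. On the lower side these were MTFMT (-0.39), OXA1L (-0.11) and LRPPRC, and on the higher side TACO1 (0.25), GFM1 (0.17) and again LRPPRC.

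Of 28 listed assembly factors, 26 had a row and 20 were measured, with a median of -0.12. Their intervals lay below 0 for 3 (15%) and above 0 for 1 (5%), less than the 22.3% and 18.2% of all measured genes. Their median counting error was 0.17, beside 0.15 over all measured genes, so their intervals were wider and leave out 0 less readily. FTSJ2, a methyltransferase of the large ribosomal RNA, went from 149 to 98 footprints, or -0.65 (-1.02 to -0.28). The GTPase MTG1 was at -0.38 (-0.63 to -0.13) and the pseudouridine synthase RPUSD3 at -0.39 (-0.67 to -0.11). PTCD1, a pentatricopeptide repeat protein whose span overlaps CPSF4 on the opposite strand, went from 739 to 955, or 0.32 (0.18 to 0.46). GTPBP10 (-0.33), FASTKD2 (0.16), NGRN (0.056) and GRSF1 (-0.0022) came next, and their intervals held 0.

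Cytosolic ribosomal proteins had medians of -0.30 over 30 measured large-subunit and -0.28 over 19 measured small-subunit genes, and their pseudogene copies make these counts uncertain. All 9 measured genes of mitochondrial DNA, the templates of the mitochondrial ribosome, were at least 2-fold higher in the knockdown-labelled library, from 1.02 to 2.56 on the log2 scale, while no measured mitochondrial ribosomal protein differed 2-fold. With 1 library per group, differences between lists cannot be set against the spread between cultures.

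**Figure D4:**
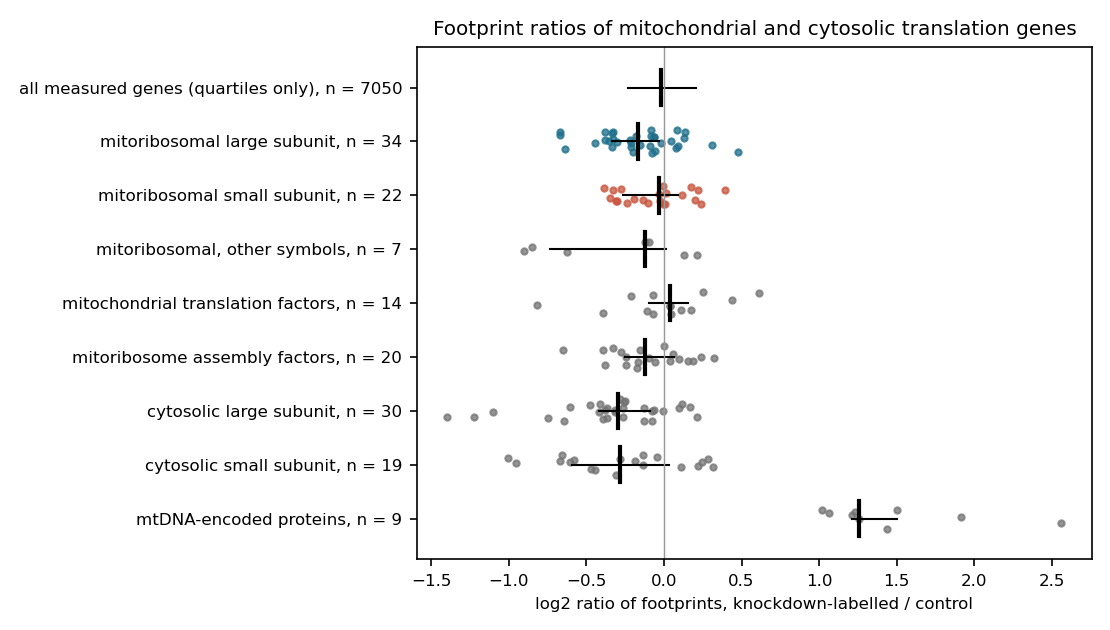
Log2 ratio of footprints (x axis) for measured genes in 9 lists (rows); each point is a gene, the thin horizontal bar spans the quartiles and the thick vertical bar is the median, with no points for all 7050 measured genes. The 9 genes of mitochondrial DNA lie above 1. The mitoribosomal large subunit has a median of -0.17 (quartiles -0.33 and -0.029), and the small subunit one of -0.029 (quartiles -0.27 and 0.089).

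RNA counts were too few for a matching comparison. The 66 members had 724 RNA counts in the control (exact Poisson interval 672 to 779) and 881 in the knockdown-labelled library (824 to 941), beside 20578 and 19133 footprints, and 34 and 25 members were at 0. MRPS25, MRPL47, MRPS18C and MRPL34 were the 4 members with at least 100 RNA counts over both libraries and held 543 and 625 of these counts. The other 62 members together had 181 and 256.

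After TMM scaling the summed RNA was at -0.15 (-0.30 to -0.013), but at 0.069 (-0.13 to 0.27) over the 50 members whose span is free of opposite-strand genes. Over the 62 members other than the 4 with at least 100 RNA counts it was at 0.061 (-0.21 to 0.34). Both of these sets leave out MRPL47, and the cause of the shift was not tested. MRPL47, which overlaps ACTL6A, went from 173 to 151 RNA counts, or -0.63 (-0.95 to -0.32), while its footprints numbered 551 and 561. Its footprints over RNA were at 0.61 (0.26 to 0.97). For MRPS25 the RNA counts were 176 and 254 and the footprints 53 and 55, and for MRPS18C they were 104 and 112 with 80 and 67 footprints. Their footprints over RNA were at -0.084 (-0.69 to 0.52) and 0.031 (-0.57 to 0.63). MRPS18C overlaps FAM175A on the opposite strand, which had 239 and 314 RNA counts and 0 footprints, and its part in these values was not tested. MRPL34 had 90 and 108 RNA counts but too few footprints to be measured. In the authors' deposited table, the ratio of footprint to RNA RPKM was listed at 0 for 35 of 66 members in the control and for 25 in the knockdown-labelled cells. It reached 27135 in that deposited table for MRPL52, which had 1 control RNA count.

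Sequence shared by the members was looked for in their promoters, because sites for ETS-family factors such as GABP, for NRF1 and for YY1 are known from nuclear genes of mitochondrial proteins. RefSeq windows of 250 bases before to 50 after the annotated start (GRCh38.p14) were matched by symbol for 58 of 66 members, taking the first window listed per gene. The ETS-type motif CCGGAAG, on either strand, was in 24 of 58 windows (41.4%), beside 14.2% of 15843 RefSeq protein-coding genes. This background was not limited to genes measured here, whereas most members were measured. The YY1-type motif AAGATGGC, on either strand, was in 17 (29.3%), beside 3.91%. The palindromic core of the NRF1 site, which reads the same on both strands, was in 1 window (1.72%), that of MRPL17, beside 1.75%. The ETS-type and YY1-type motifs can share the letters AAG, and 0 matches in member windows overlapped in this way. Of the 58 windows, 34 (58.6%) held at least 1 of these 2 motifs, beside 17.2% of all.

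The ETS-type motif was in 12 of 33 large-subunit and 12 of 25 small-subunit windows, and the YY1-type motif in 9 and 8. Of 18 YY1-type matches, 12 began after the annotated start, and all 12 read on the sense strand. Of 32 ETS-type matches, 5 began at or after the start, and the median position was -21.5 relative to it. A run of 5 pyrimidines opening with C at the annotated start, the mark of terminal oligopyrimidine mRNAs whose translation follows mTOR activity, was in 4 of 58 windows (6.90%), beside 68.9% of 61 cytosolic ribosomal protein genes and 4.60% of all. The ETS-type motif was in 32.8% of those cytosolic windows and the YY1-type motif in 9.84%. Among 34 windows of mitochondrial translation and assembly factors, the ETS-type motif was in 44.1% and the YY1-type motif in 5.88%.

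The printed windows belong to the 2 measured genes of each subunit with the highest mean footprint RPKM among those with a motif inside the printed stretch, and show how the letters are placed. Each covers 120 bases before to 30 after the start, 5′ to 3′ in the direction of transcription, with ETS-type and YY1-type matches in capitals (CTTCCGG is the ETS-type motif on the other strand). They lie in RefSeq's GRCh38.p14 at chr12:6493233-6493382 (minus strand), chr14:22829767-22829916 (plus strand), chr16:1773105-1773254 (minus strand) and chr7:141014923-141015072 (minus strand).
MRPL51: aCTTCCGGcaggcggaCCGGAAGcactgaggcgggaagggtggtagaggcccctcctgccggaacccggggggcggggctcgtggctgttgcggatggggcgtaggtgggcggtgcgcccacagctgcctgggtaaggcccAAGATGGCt
MRPL52: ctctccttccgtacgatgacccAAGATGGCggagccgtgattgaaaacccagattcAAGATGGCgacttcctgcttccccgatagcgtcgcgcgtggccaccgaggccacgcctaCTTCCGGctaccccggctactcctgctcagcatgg
MRPS34: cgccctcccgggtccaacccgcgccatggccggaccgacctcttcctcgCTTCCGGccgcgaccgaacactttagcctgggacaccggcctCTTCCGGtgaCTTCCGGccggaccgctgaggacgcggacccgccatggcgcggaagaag
MRPS33: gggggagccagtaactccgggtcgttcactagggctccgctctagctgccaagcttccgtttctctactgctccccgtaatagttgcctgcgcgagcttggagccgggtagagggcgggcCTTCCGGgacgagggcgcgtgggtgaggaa

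MRPL51 carries a pair of ETS-type matches before the start and a YY1-type match after it. MRPL52 carries a pair of YY1-type matches before the start and an ETS-type match that runs across it. MRPS34 has 3 ETS-type matches before the start, and MRPS33 has 1 that begins at it. Measured members with the ETS-type motif had a median log2 ratio of -0.12 (22 genes) and those without it in the window -0.15 (29 genes). With the YY1-type motif the median was -0.10 (15 genes), and without it -0.14 (36 genes). In the small subunit the medians with and without the YY1-type motif were -0.24 (7 genes) and -0.0081 (15 genes), whereas in the large subunit they were -0.070 (8 genes) and -0.21 (21 genes), in the opposite order.

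**Figure D5:**
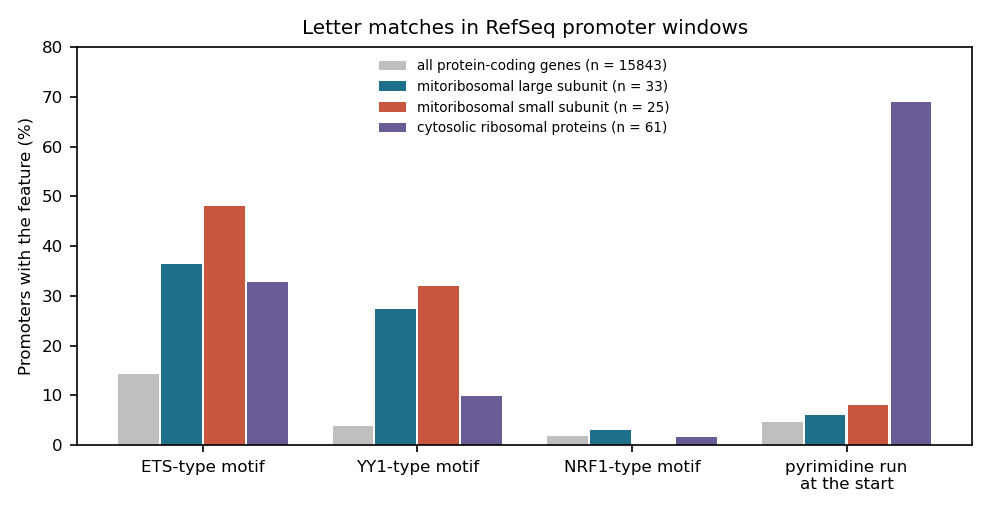
Share of promoter windows (percent, y axis) with each letter motif or with a pyrimidine run at the start, for all RefSeq protein-coding genes, the mitoribosomal subunits and cytosolic ribosomal proteins. The YY1-type motif is in 9 of 33 large-subunit and 8 of 25 small-subunit windows beside 3.91% of all, and the pyrimidine run in 68.9% of cytosolic ribosomal protein windows.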

How the data were processed

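Ribosome footprints and RNA were counted in 4 libraries of SNU-668 cells, 1 in each of 4 groups, assigned from the titles and genotype labels. Per the labels' protocols, lysates were digested with RNase, monosomes were isolated on sucrose, and protected fragments were ligated and amplified. Per the submitters' processing notes, FastQC, cutadapt, Bowtie and STAR and the genome hg19 were used. How reads were counted, by strand or when shared between genes, is not stated there. The authors deposited whole-number counts per gene, RPKM values, and a ratio of footprint to RNA RPKM. In the deposited footprint RPKM, the scale between the 2 libraries is the same for every gene.

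From the counts, log2 ratios (prior count 0.5) were computed with totals scaled by TMM (edgeR 4.0.16, R 4.3.3) over the whole table, with delta-method 95% counting intervals, in Python 3.11.15. Without molecular identifiers, PCR copies of a fragment are counted more than once, so these intervals and the floor of 3 counts describe counting error alone. With 1 library per group no test was possible. The ratio and its interval were run on simulated Poisson counts scaled by raw totals, which leaves TMM scaling and the spread between cultures untested. Members with at least 100 footprints over both libraries were counted as measured. No protein sequences were used here, so levels per length rest on the deposited RPKM rather than on footprints per codon. Named genes were, per subunit, the 6 measured members on each side ranked by the end of the interval closest to 0, the 5 highest and 5 lowest per length, members under the filter, members with 100 RNA counts, MRPL18, MRPS18A, MRPS30 and MRPS36, the ribosomal proteins under other symbols, and the 4 furthest on each side of the factor lists. Other genes named by place in the ribosome, and TUFM, were added after their values were seen. MRPL12, which that rule names, was not analysed here. The members, the lists, the rule and the places assigned within the ribosome were chosen with earlier results of these data known.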

Additional observations from a re-analysis of the deposited data

How the results depend on the processing

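All values here are log2 ratios or counts of measured members, and the cause of each shift was not tested unless stated. With totals without TMM the medians were -0.032 (all members), -0.10 (large) and 0.038 (small). Of the 56 intervals, 12 lay below and 8 above 0, beside 17.0% and 24.6% over all measured genes. With the deposited RPKM plus 0.1 the medians were 0.020, -0.049 and 0.090. Of the 56 intervals, 9 lay below and 9 above 0, beside 13.1% and 29.5% over all measured genes. At 1.5-fold, 0 members were lower and 1 higher, and the matching shares of all genes were not computed. Both scalings shift all genes alike, so that the difference between the subunits was -0.14 under each. Median-of-ratios size factors (DESeq2 1.42.0), a prior count of 5 and exact Clopper-Pearson intervals moved no group result beyond its counting interval or 1.5 times. Filters of 20 and 1 footprints let in 63 and 66 members. At least 1.5-fold lower were 5 and 6, and 2 and 2 were higher, since more genes enter. The matching 1.5-fold shares of all genes were not computed. Intervals lay below 0 for 21 and 22 members, beside 17.8% and 13.8% of all genes past these filters. Above 0 lay 6 and 6, beside 15.7% and 12.1%. The median over all members was -0.14 at 20, and the large-over-small level ratios were 1.34 and 1.31. Placing MRPS18A and MRPS30 in the large subunit gave a large-subunit median of -0.13 and a level ratio of 0.98. Adding the 7 other symbols gave a small-subunit median of -0.10, a subunit difference of -0.051 and a level ratio of 1.32. Of the 63 genes then measured, 6 were at least 1.5-fold lower, beside 4.62% of all measured genes. Members with no opposite-strand overlap had medians of -0.14 (all) and -0.083 (small), a level ratio of 0.91, and a summed RNA ratio of 0.069. Their intervals lay below 0 for 15 (36.6%) and above 0 for 2 (4.88%), beside 22.3% and 18.2% of all measured genes. Summed counts gave -0.15 for all members, beside -0.070 for all measured genes. At 2-fold no member was lower. Without the 3 genes at least 1.5-fold lower, an alternative chosen after seeing the data, the large-subunit median was -0.093 and the difference -0.064. Whether the interval left out 0 stayed as it was for 25 of 32 named genes under totals without TMM, 30 with size factors, 21 with RPKM and 32 with the prior count of 5. No gene with an interval off 0 changed sign, while among genes whose interval held 0 the ratio of MRPL47 crossed 0 under totals without TMM and with RPKM, and those of DAP3, MRPL37 and MRPS18A with RPKM. The level per codon was not run, and no result could be recomputed without a library, as each group has 1. No paired analysis was possible because each group holds 1 library and the labels give no replicate numbers. Depth limits RNA most, where 57 of 66 members had under 10 control counts.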
